A study of Mus musculus with 20 samples.

Results

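H3K4me1, histone H3 with a single methyl group on lysine 4, was mapped in the medial ganglionic eminence (MGE) of wild-type mouse embryos and of embryos that lacked Nkx2-1 conditionally. The regions described are those of the 2 H3K4me1 peak lists. Entries with the same chromosome, start and end were merged into 1 region, and chromosomes 1 to 19 and X were kept. This gave 99089 wild-type and 107694 mutant regions, together 206783 of the 471733 regions in the 10 peak lists of the series.

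Both H3K4me1 libraries came from C57BL/6 embryos at embryonic day 13.5, 1 library from MGE labelled Wildtype and 1 from MGE labelled Nkx2-1cKO. The labels give neither the Cre driver, nor the floxed allele, nor the number of embryos per library. Lists of H3K27ac, H3K4me3 and H3K27me3 from the same strain, age, tissue and genotypes were used beside them, with NKX2-1 and LHX6 peaks from basal ganglia of wild-type CD-1 embryos of that age. With 1 library per genotype there is no replicate error, so no p-value can be given and every difference below describes these libraries only. In dissected tissue, fewer cells of a type and less mark per cell cannot be told apart.

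H3K4me1 is written at enhancers mainly by the methyltransferases MLL3 and MLL4 and is found there whether or not the enhancer is active. H3K27ac is added at active enhancers. At active promoters H3K4me1 flanks a centre of H3K4me3. The MGE is the ventral part of the embryonic telencephalon that gives rise to many cortical and striatal interneurons and to cholinergic neurons of the basal forebrain. NKX2-1 is the homeodomain factor that defines it, and without NKX2-1 the tissue is known to take on features of the eminences beside it, the lateral (LGE) and the caudal (CGE). NK2 homeodomain factors such as NKX2-1 bind the cores CACTTGA and CACTCAA.

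A region is called alone here when no region of the other genotype overlaps it by at least 1 base, and shared otherwise. Reference sequence of the strongest regions alone is shown first, because the sequence of the regions alone differed between the genotypes. Each window holds 300 bases around the summit on the forward strand of build NCBIM37 (mm9), and touches no exon of a protein-coding gene. Capitals mark every match, on either strand, to the NK2 cores above, to the LIM homeodomain cores TAATTA and TAATGA, and to the core TGACAG of TALE factors such as MEIS2. The 3 strongest distal wild-type regions alone, on the authors' −log10 p, lay nearest to Nnat (window chr2:157343891-157344190), Nr2e1 (chr10:42278159-42278458) and Lca5l (chr16:96397036-96397335). A LIM core and a TALE core stand in the Nr2e1 window, and none of these cores stands in the windows of Nnat and Lca5l.
Nnat: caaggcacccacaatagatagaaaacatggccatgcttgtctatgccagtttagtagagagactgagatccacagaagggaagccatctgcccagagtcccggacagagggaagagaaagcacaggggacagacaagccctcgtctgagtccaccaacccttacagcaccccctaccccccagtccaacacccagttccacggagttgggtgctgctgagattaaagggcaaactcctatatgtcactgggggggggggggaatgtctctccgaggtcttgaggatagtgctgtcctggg
Nr2e1: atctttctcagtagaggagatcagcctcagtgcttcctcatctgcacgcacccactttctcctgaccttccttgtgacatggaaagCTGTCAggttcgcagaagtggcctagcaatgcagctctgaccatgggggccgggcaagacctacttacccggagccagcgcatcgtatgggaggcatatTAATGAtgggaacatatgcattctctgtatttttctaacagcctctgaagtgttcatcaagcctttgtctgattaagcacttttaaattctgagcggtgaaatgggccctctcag
Lca5l: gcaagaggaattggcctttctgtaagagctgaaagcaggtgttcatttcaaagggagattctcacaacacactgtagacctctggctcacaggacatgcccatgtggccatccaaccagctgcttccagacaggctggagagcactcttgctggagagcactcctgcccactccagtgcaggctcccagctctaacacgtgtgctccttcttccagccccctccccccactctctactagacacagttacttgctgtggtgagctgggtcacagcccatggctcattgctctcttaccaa

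The 3 strongest distal mutant regions alone lay nearest to D3Ertd751e (window chr3:42720685-42720984), Tas2r119 (chr15:31929690-31929989) and Plcl1 (chr1:55757647-55757946). Their GC content was 43.0%, 42.3% and 42.0%, against 55.3%, 49.3% and 54.7% for the wild-type windows of Nnat, Nr2e1 and Lca5l. The windows of Tas2r119 and Plcl1 each hold 1 TALE core, and the D3Ertd751e window holds none of the marked cores.
D3Ertd751e: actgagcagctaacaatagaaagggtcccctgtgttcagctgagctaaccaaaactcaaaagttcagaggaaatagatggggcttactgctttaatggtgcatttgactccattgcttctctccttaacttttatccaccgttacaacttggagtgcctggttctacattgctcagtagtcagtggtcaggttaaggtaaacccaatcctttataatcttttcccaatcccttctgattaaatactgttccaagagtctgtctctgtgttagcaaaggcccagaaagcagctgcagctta
Tas2r119: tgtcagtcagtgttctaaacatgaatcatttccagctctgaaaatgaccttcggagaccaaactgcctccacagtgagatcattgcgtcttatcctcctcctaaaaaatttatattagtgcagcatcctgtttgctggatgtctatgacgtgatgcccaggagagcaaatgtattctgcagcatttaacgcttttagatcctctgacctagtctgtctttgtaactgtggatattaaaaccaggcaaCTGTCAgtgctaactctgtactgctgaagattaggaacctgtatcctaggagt
Plcl1: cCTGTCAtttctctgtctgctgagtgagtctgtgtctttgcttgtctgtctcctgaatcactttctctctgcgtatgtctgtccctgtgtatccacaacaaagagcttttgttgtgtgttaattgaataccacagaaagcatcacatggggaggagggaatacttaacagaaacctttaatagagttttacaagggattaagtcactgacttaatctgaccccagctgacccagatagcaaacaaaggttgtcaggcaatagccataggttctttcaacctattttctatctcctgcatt

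The 2 strongest wild-type regions alone that hold both an NKX2-1 peak and an NK2 core are shown as examples. Away from TSSs and H3K4me3, wild-type regions alone carried each of these more often than shared regions, as given below. They were chosen after the values were seen. They lay nearest to A630001G21Rik (window chr1:87616860-87617159) and Cobl (chr11:12132596-12132895), both with −log10 p of 23.7. Each had H3K27ac in wild type and none in the mutant. The capitals in the Cobl window are 1 NK2 core. The A630001G21Rik window has 1 NK2 core and 1 TALE core.
A630001G21Rik: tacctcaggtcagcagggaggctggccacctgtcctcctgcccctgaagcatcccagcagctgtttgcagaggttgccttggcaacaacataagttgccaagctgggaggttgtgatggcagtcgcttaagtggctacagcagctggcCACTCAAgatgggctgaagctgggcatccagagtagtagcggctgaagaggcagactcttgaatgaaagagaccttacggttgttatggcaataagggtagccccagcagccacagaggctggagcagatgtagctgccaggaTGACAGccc
Cobl: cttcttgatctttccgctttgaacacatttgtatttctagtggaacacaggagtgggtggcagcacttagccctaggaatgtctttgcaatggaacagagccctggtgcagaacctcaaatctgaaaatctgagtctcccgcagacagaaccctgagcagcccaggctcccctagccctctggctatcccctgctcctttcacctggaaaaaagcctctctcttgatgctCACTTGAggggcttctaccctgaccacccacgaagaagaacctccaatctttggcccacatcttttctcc

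The lists differed little in size and depth. After removal of duplicates the wild-type library held 59.7 M ChIP tags and the mutant library 69.0 M, 1.16 times as many, against 54.2 and 52.6 M input tags. H3K4me1 covered 76.5 Mb in wild type and 83.8 Mb in the mutant, 1.10 times as much. The median region was 581 bases long in wild type and 589 bases in the mutant, and 163 and 170 regions reached 5 kb. The longest region was 20091 bases in wild type and 15288 bases in the mutant. Bases covered in both genotypes came to 63.0 Mb, 64.7% of the bases covered in either. They were 82.3% of the wild-type bases and 75.1% of the mutant bases.

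Most H3K4me1 regions were present in both genotypes, and those that were not were weak and short. In wild type 15096 regions were alone, 15.2% of the list (exact Clopper-Pearson 95% interval 15.01 to 15.5%). In the mutant 25628 regions were alone, 23.8% of the list (23.5 to 24.1%). These intervals cover counting error only. Regions alone had a median length of 338 bases in wild type and 350 bases in the mutant, against 654 and 713 bases for shared regions. Their share climbed with falling strength, as −log10 p, from 0.0606% in the strongest decile to 41.2% in the weakest decile of the wild-type list. In the mutant list it climbed from 0.0464% to 58.1%. No region at a −log10 p of 30 or more was alone, among 6616 wild-type and 6268 mutant regions. At 20 or more, 95 of 24883 wild-type regions and 182 of 26890 mutant regions were alone. A region of the other genotype lay within 1 kb of 36.0% of wild-type and 29.2% of mutant regions alone.

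**Figure D1:**
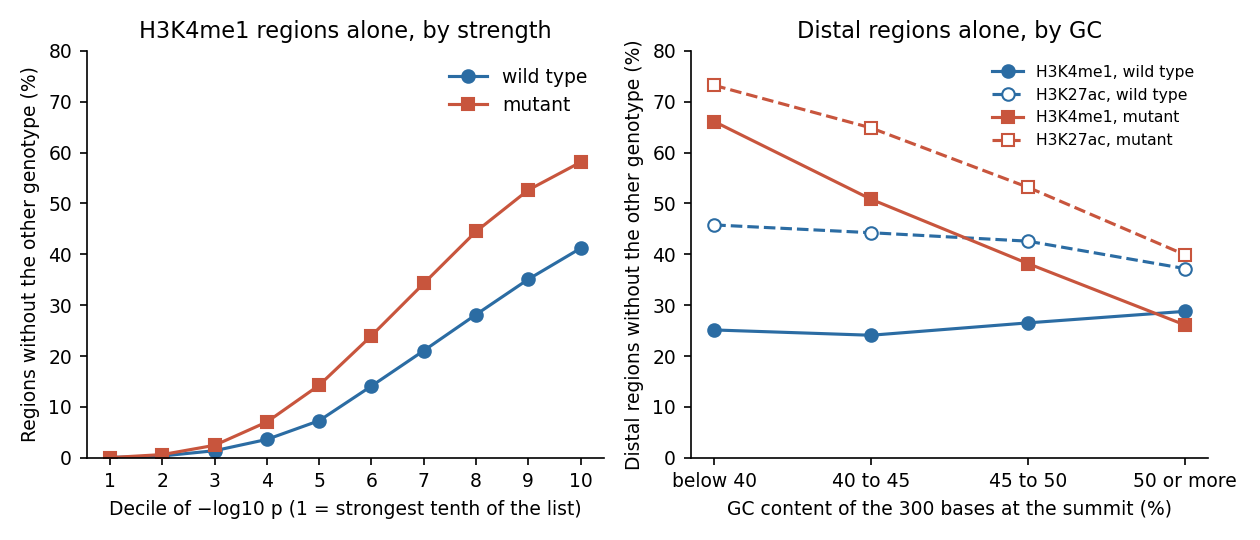
Left, the share of H3K4me1 regions without an overlapping region of the other genotype (%, y axis) by decile of −log10 p within each list (x axis, 1 the strongest), 1 point per decile and genotype. Right, the same share among distal regions (over 2.5 kb from a TSS, no H3K4me3) by GC content of the 300 bases at the summit (%, x axis), for H3K4me1 (filled points) and H3K27ac (open points). The share alone rises to 41.2% and 58.1% in the weakest decile, and in the mutant H3K4me1 list it falls from 66.1% in the lowest to 26.1% in the highest GC class.

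Which genotype had more regions alone turned with the number of bases called. When the mutant list was limited by −log10 p to the 76.5 Mb of the wild-type list, 87865 mutant regions with a −log10 p of at least 8.70 were left. The shares alone were then 22.9% in wild type (22658 regions) and 16.6% in the mutant (14564 regions), the opposite order. With both lists limited to 50% of these bases, 28.0% of wild-type and 25.6% of mutant regions were alone. The share of bases in both genotypes stayed at 64.9% with equal covered bases. The excess of mutant regions in the deposited lists is thus not kept with equal covered bases, and results below are given with both lists as deposited and, where the order or a call changes, with equal covered bases.

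In the lists as deposited, H3K4me1 regions alone lay farther from transcription start sites (TSSs) than shared regions, and those of the mutant farthest. Over whole lists, 29.4% of wild-type and 26.9% of mutant regions were within 2.5 kb of a TSS of a protein-coding gene. Of the regions alone, 15.4% of wild-type and 9.27% of mutant regions were that near. The median distance from the nearest TSS was 28.8 kb for wild-type and 51.3 kb for mutant regions alone, against 18.1 and 17.5 kb for shared regions. Over 100 kb from any TSS lay 22.0% of wild-type and 33.3% of mutant regions alone. Introns held 42.9% and 44.2% of the regions alone, and sequence between genes held 37.3% and 43.3%. With equal covered bases, 17.1% of wild-type and 9.12% of mutant regions alone were near a TSS, the same order. With 50% of the covered bases it turned for wild type, with 43.6% of the regions alone against 41.7% of the whole list, and not for the mutant, with 27.6% against 37.8%.

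Promoters with H3K4me3 showed the textbook shape, and just downstream of the TSS fewer of them held H3K4me1 in the mutant, with or without H3K27me3, the mark of Polycomb repression. For each gene the most upstream TSS was taken, with H3K4me3 or H3K27me3 counted where the mark lay within 500 bases of it in both genotypes. At 10683 genes with H3K4me3 without H3K27me3, H3K4me1 covered the TSS itself in 17.2% in wild type and 15.2% in the mutant. It peaked upstream at 53.7% and 53.5% of these genes, and downstream at 65.2% and 64.7%, 800 and 900 bases from the TSS. From the TSS to 500 bases downstream the mutant share was lower, 24.8% against 30.02% at 300 bases downstream and 33.3% against 38.8% at 400 bases, and at 1.3 kb it was higher, 53.1% against 50.6%. At 2849 genes with both marks, H3K4me1 covered the TSS in 50.4% in wild type and 44.1% in the mutant, and the position 200 bases downstream in 62.4% and 52.8%. Their downstream peak was 65.2% in wild type and 59.8% in the mutant, and their upstream peak 57.4% and 52.9%, so the wild-type share was higher on both sides although the mutant list covers more bases. At 8529 genes without H3K4me3 in either genotype the shares at the TSS were 1.15% and 1.07%.

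**Figure D2:**
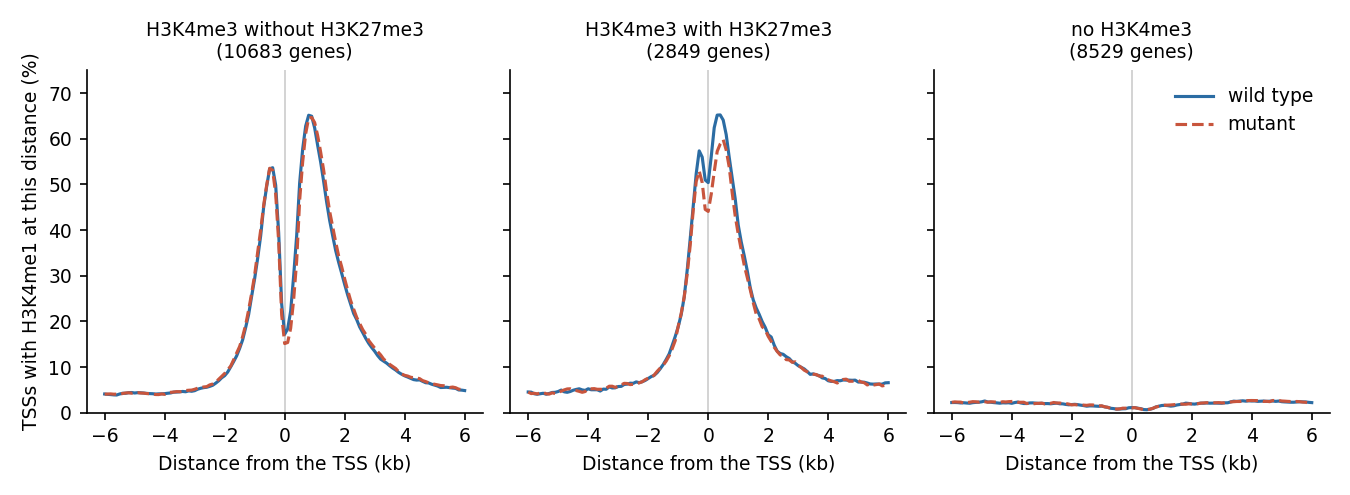
Share of TSSs covered by H3K4me1 (%, y axis) by distance from the TSS along the gene's strand (kb, x axis), 1 TSS per gene, in wild type (solid) and mutant (dashed), for 3 classes of promoter. At promoters with H3K4me3 the mutant curve is the lower one from the TSS to 0.5 kb downstream, by the most at 0.4 kb without H3K27me3 (33.3% against 38.8%) and at 0.2 kb with it (52.8% against 62.4%).

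Base composition moved with the mutant regions alone. In distal regions, here those over 2.5 kb from a TSS and without H3K4me3 in either genotype, the median GC content of the 300 bases at the summit was 45% in mutant regions alone and 47.3% in mutant shared regions. It was 48.3% in wild-type regions alone and 47.7% in wild-type shared regions. Among mutant distal regions, the share alone fell from 66.1% where GC was under 40% to 50.8%, 38.2% and 26.1% at 40 to 45%, 45 to 50% and 50% or more. The wild-type shares in these classes were 25.1%, 24.1%, 26.5% and 28.8%, with no such slope. H3K27ac in the mutant had the same slope, from 73.2% under 40% GC to 39.9% at 50% or more, against 45.8% to 37.2% in wild type. Per the file headers, H3K4me1 and H3K27ac of a genotype were called against the same input library. The part of library composition in these gains was not tested. Chromosome X held the highest share alone in both lists, 21.0% in wild type and 33.7% in the mutant, on 1153 and 1346 regions. The lowest shares were 13.4% on chromosome 19 in wild type and 18.4% on chromosome 11 in the mutant.

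Single regions alone reached moderate strength only. The strongest wild-type region alone, chr2:157343159-157345248, lay between genes 40.6 kb from the nearest TSS, that of the imprinted gene Nnat, with a −log10 p of 29.8 and the authors' fold enrichment of 6.84. It carried H3K27ac in both genotypes. The next by strength lay between genes 9.88 kb from Nr2e1, which encodes the nuclear receptor TLX of neural stem cells (chr10:42277272-42278758), and across an exon 15.9 kb from the nearest TSS, that of Lca5l (chr16:96396956-96397964). Both carried H3K27ac in wild type and not in the mutant. The longest wild-type region alone, 4304 bases, lay in an intron of Lhx6 (chr2:35950575-35954878), a LIM homeodomain factor of MGE-derived interneurons. Another, of 1980 bases, lay 5.35 kb from the nearest TSS of Nkx2-1 itself (chr12:57630570-57632549). It held an NKX2-1 peak and carried H3K27ac, H3K4me3 and also H3K27me3 in wild type only. Among the mutant regions alone the strongest lay far from genes or in introns, 1174 kb from D3Ertd751e (chr3:42720432-42721018), 177 kb from Tas2r119 (chr15:31929340-31930161) and 4.98 kb inside Plcl1 (chr1:55757570-55758009). Each of them had H3K27ac in the mutant and not in wild type. The longest mutant region alone was 2281 bases, 485 kb from Arglu1 (chr8:9175257-9177537). A mutant region alone of 1997 bases lay at a promoter of Pax6 (chr2:105521243-105523239), a homeodomain factor of the pallium and dorsal LGE, with H3K4me3 in both genotypes.

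At distal regions H3K27ac moved the same way as H3K4me1. Of 11801 distal wild-type regions alone, 24.0% carried H3K27ac in wild type and 9.66% in the mutant. Of 21166 distal mutant regions alone, 7.33% carried H3K27ac in wild type and 21.1% in the mutant. Shared regions of the wild-type list carried it in 39.1% and 43.8%. Most distal regions alone thus carried H3K27ac in neither genotype, 73.6% of those of wild type and 77.2% of those of the mutant. Among the strongest regions of each distal list (1 of 3 parts of equal size by −log10 p), H3K27ac went from 43.3% in wild type to 10.7% in the mutant at wild-type regions alone, and from 9.60% to 33.5% at mutant regions alone. H3K27me3 lay on 2.36% and 3.65% of the distal wild-type regions alone in wild type and mutant, and on 1.54% and 2.20% of those of the mutant.

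NKX2-1 peaks were found at distal wild-type regions alone and were rare at mutant regions alone. They lay on 2.45% of distal wild-type regions alone (289 regions), on 2.04% of shared regions of that list (661 regions) and on 0.156% of mutant regions alone (33 regions). With promoters and H3K4me3 included the order in wild type was the other way, 2.53% of regions alone against 4.39% of shared regions, and in the mutant 0.340% against 4.39%. Among these strongest regions of the wild-type list the shares were 8.06% of the regions alone (117 of 1452, exact interval 6.71 to 9.58%) and 3.98% of the shared regions. In the mutant list they were 0.110% of the regions alone, 3 of 2729, and 2.69% of the shared regions. NKX2-1 and LHX6 were mapped in wild-type tissue only, so these peaks are no measurement of the mutant. Mutant regions alone have, by definition, no overlapping wild-type H3K4me1. Their low share of wild-type peaks cannot be told apart from that definition. Within wild-type regions alone, those with H3K27ac in wild type alone held an NKX2-1 peak in 5.22%, and those with H3K27ac in neither genotype in 1.89%. LHX6 peaks lay on 0.737% of distal wild-type regions alone, 0.580% of shared and 0.118% of mutant regions alone.

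**Figure D3:**
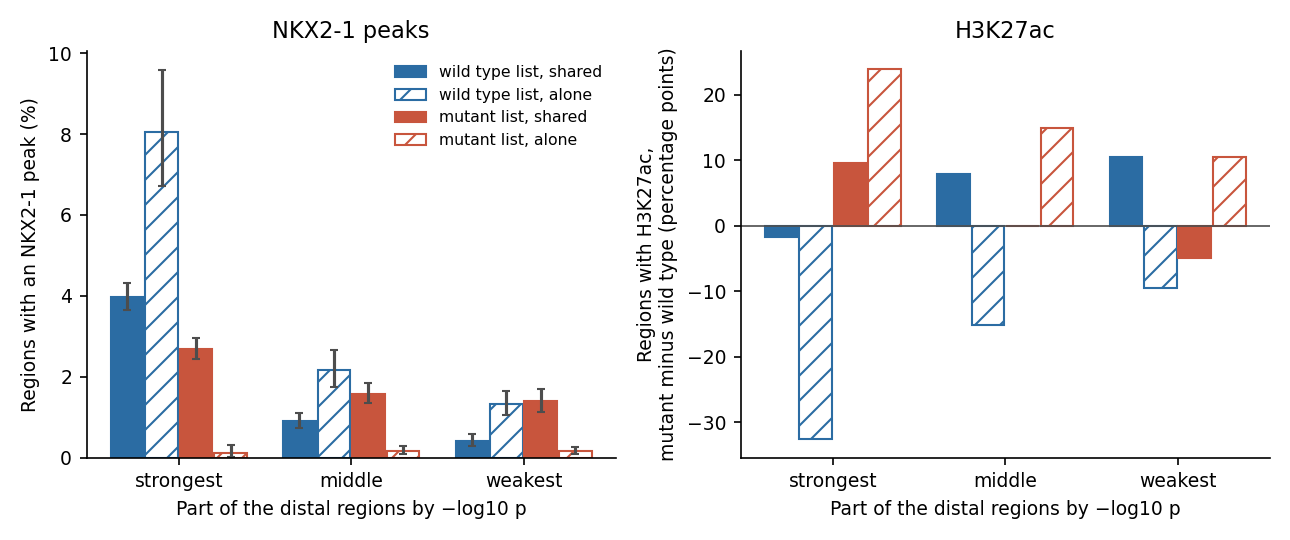
Left, share of distal H3K4me1 regions with an NKX2-1 peak (%, y axis) in the strongest, middle and weakest of 3 equal parts of each list by −log10 p, for shared regions (filled bars) and regions alone (hatched bars) of each genotype, with exact 95% intervals for counting error. Right, share with H3K27ac in the mutant minus that in wild type (percentage points) for the same bars. The tallest NKX2-1 bar is that of strong wild-type regions alone, 8.06%, and H3K27ac differs in opposite directions at the regions alone of the 2 lists.

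The NK2 core stood more often in wild-type regions alone and less often in mutant regions alone than in shared regions. In windows of 300 bases, CACTTGA or CACTCAA was found on either strand in 12.9% of distal wild-type regions alone and 9.22% of shared regions of that list. It was found in 7.55% of distal mutant regions alone and 9.09% of shared regions of that list. Over all distal windows the shares were 10.2% in wild type and 8.46% in the mutant. Wild-type regions alone without an NKX2-1 peak held the core in 12.5%, 1444 of 11512, against 8.99% of shared regions without a peak. With a peak the core stood in 26.3% of wild-type regions alone and 20.1% of shared regions. The order held in every GC class. Under 40% GC wild-type regions alone had 13.6% and shared regions 9.33%, and at 50% or more 11.2% and 8.19%. Mutant regions alone had 9.25% against 11.7% under 40% GC and 5.74% against 7.74% at 50% or more. With equal covered bases it was 12.3% against 8.90% in wild type and 7.34% against 8.83% in the mutant. A match is a description of the letters in the window and does not show binding.

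Of the other cores, those of the E-box moved the same way, and the rest moved the other way or with base composition. The TALE core TGACAG stood in 25.2% of wild-type regions alone, 27.8% of shared and 30.01% of mutant regions alone. This order also held at 50% GC or more, with 26.6% of wild-type regions alone against 29.7% of shared regions and 33.2% of mutant regions alone against 29.95%. The SOX cores ACAATG and ACAAAG stood in 40.3% of wild-type and 48.3% of mutant regions alone, but in mutant regions of 50% GC or more they stood in 39.7% of regions alone and 39.8% of shared regions. The LIM homeodomain cores stood in 24.2% and 29.4%, and under 40% GC in 42.2% of mutant regions alone against 49.9% of shared regions. The E-box cores CAGATG and CAGCTG, bound by proneural factors, moved the same way as the NK2 core. They stood in 48.3% of wild-type regions alone against 45.6% of shared regions, and in 39.3% of mutant regions alone against 45.8%. Mutant regions alone were below the shared regions in every GC class. Wild-type regions alone were above the shared regions except under 40% GC, with 32.3% against 34.7%. The POU core ATGCAAA stood in 7.55% of wild-type and 9.43% of mutant regions alone.

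For genes, H3K4me1 coverage was the length covered in a window spanning all TSSs of a gene with 10 kb added on each side. A gene was said to rise or fall when this length changed by at least 2 kb and 1.5-fold, which is a rule of size and no test. Of 22342 protein-coding genes, 45 fell (0.201%) and 129 rose (0.577%). With equal covered bases 127 fell (0.568%) and 62 rose (0.278%). In this setting only the mutant list loses regions, so all 45 genes that fell had to be called again. Of the 129 that rose, 62 were still called. With 50% of the covered bases, where both lists lose regions, 18 of the 45 and 35 of the 129 were called. The windows of neighbouring genes overlap, so the 45 genes lie in 38 separate stretches and the 129 in 126. Windows of the genes that fell had a median GC content of 49.8% and a median length of 21.4 kb. Those of genes that rose had 42.3% and 128.7 kb, against 44.6% and 20 kb over all genes. In windows of 50% GC or more 22 genes fell and 5 rose, and in windows under 40% GC 0 fell and 24 rose.

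The other marks of the same genes were measured in separate ChIP libraries, but H3K4me1 and H3K27ac of a genotype were called against the same input library. The input of H3K27me3 had the same number of tags, 54.2 M in wild type and 52.6 M in the mutant. That of H3K4me3 had 63.2 and 39.0 M. Of the 45 genes with lower H3K4me1, H3K27ac fell at 18 and rose at 0, against a background of 0.425% of all genes lower and 1.01% higher. H3K4me3 fell at 4 and rose at 0 (background 0.0537% and 0.873%), and H3K27me3 fell at 0 and rose at 5 (0.170% and 1.35%). Of the 129 genes with higher H3K4me1, H3K27ac rose at 69 and fell at 0, H3K4me3 rose at 38 and fell at 0, and H3K27me3 fell at 12 and rose at 12. An NKX2-1 peak lay in the window of 20 of the 45 genes (44.4%) and of 27 of the 129 (20.9%), against 11.8% of all genes. Window lengths and GC content differ between these groups, as given above, and mutant H3K27ac had the same slope with GC as mutant H3K4me1. The part of base composition in the common direction of the marks was not tested.

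In the list of 37 MGE transcription factors, Lhx6 and Gbx2 fell and none rose (all genes 0.201% and 0.577%). Summed coverage was 337 kb in wild type against 320 kb in the mutant. The median change was -0.218 kb, against 0 kb over all genes. Coverage was at least 1 kb lower at 7 genes (18.9%, all genes 2.74%) and at least 1 kb higher at 4 (10.8%, all genes 4.05%). With equal covered bases these counts were 15 and 3, and 3 genes of the list fell. The sum was then 0.894 times that in wild type, against 0.959 over all genes. At least 2 kb in either genotype was found at 35 of the 37 genes but only at 8793 of all 22342. Nkx2-1 itself, the deleted gene, had 7.65 kb of H3K4me1 in wild type against 5.96 kb without it, short of the rule, with H3K27ac of 12.6 and 9.56 kb and 4 NKX2-1 peaks. The lists give covered length, so they do not show whether the deletion is present. Lhx6 fell from 9.45 to 2.89 kb. Of the 21 wild-type regions nearest to Lhx6, 15 were alone, and of the 7 mutant regions 0. H3K27ac at Lhx6 went from 12.8 to 0.781 kb, and 2 NKX2-1 peaks lay in its window, both within 2 kb of the TSS in the plot of 4 loci. Gbx2, a homeobox gene expressed in cholinergic neurons and the thalamus, fell from 7.21 to 2.41 kb with 0 NKX2-1 peaks. H3K27me3 covered 99.8% of its window in wild type. Lhx8, needed for cholinergic neurons, had 4.78 kb in wild type against 3.17 kb in the mutant, while its H3K27ac fell from 9.99 to 1.11 kb. Ventral telencephalic genes that the neighbouring eminences share held their coverage, with Dlx1 at 15.4 and 17.7 kb and Dlx2 at 8.47 and 9.73 kb.

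In the list of 30 LGE and CGE identity genes 6 rose and 0 fell (all genes 0.577% and 0.201%). Summed coverage went from 394 to 489 kb, 1.24 times, against 1.03 times over all genes. With equal covered bases it was 1.16 times, against 0.959 over all genes, and Meis2, Rarb, Tle4 and Pax6 rose. Coverage was at least 1 kb higher at 17 of the 30 genes (56.7%, all genes 4.05%) and at least 1 kb lower at 2. With equal covered bases these counts were 13 and 4. At least 2 kb in either genotype was found at 29 of the 30 genes but only at 8793 of all 22342, so the shares are not of like genes. Meis2, a TALE homeodomain factor of LGE neurons, rose from 39.8 to 64.4 kb. Of the 106 mutant regions nearest to it 52 were alone, and of the 69 wild-type regions 6. Tle4, a Groucho-family corepressor, rose from 13.7 to 22.8 kb. Rarb, the retinoic acid receptor of striatal neurons, rose from 8.74 to 14.6 kb, and the zinc finger homeobox gene Zfhx3 from 9.78 to 15.5 kb. Pax6 rose from 6.51 to 11.7 kb and the forkhead gene Foxp4 from 4.72 to 7.14 kb. H3K27ac rose at each of these 6 genes, for example from 1.37 to 4.46 kb at Pax6 and from 33.2 to 53.9 kb at Meis2. H3K27me3 fell at 4 of them, from 14.4 to 7.84 kb at Meis2, 15.5 to 8.50 kb at Tle4, 13.0 to 6.09 kb at Zfhx3 and 8.595 to 4.01 kb at Foxp4. Against the list's majority, Sp8, an LGE and CGE zinc finger factor, had 4.49 kb in wild type against 2.79 kb in the mutant, and Helt and Htr3a were also lower, with no call. Ebf1, a factor of striatal projection neurons, had 3.67 and 3.59 kb of H3K4me1 while its H3K27ac rose from 0.251 to 6.83 kb.

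The windows of the LGE and CGE genes had a median GC content of 44.4%, those of the MGE factors 48.0%, and the regions near them were also compared within classes of GC content. Of distal mutant regions nearest to LGE and CGE genes, 48.9% were alone (403 of 824), against 40.5% of all distal mutant regions. Under 45% GC it was 57.3% against 53.2%, at 45 to 50% GC 43.0% against 38.2%, and at 50% or more 41.5% against 26.1%. Of distal wild-type regions nearest to these genes 18.9% were alone, against 26.7% of all. For the MGE factors the shares were 36.6% in the mutant and 29.5% in wild type. No test of these shares was made, and regions of 1 gene are not independent.

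**Figure D4:**
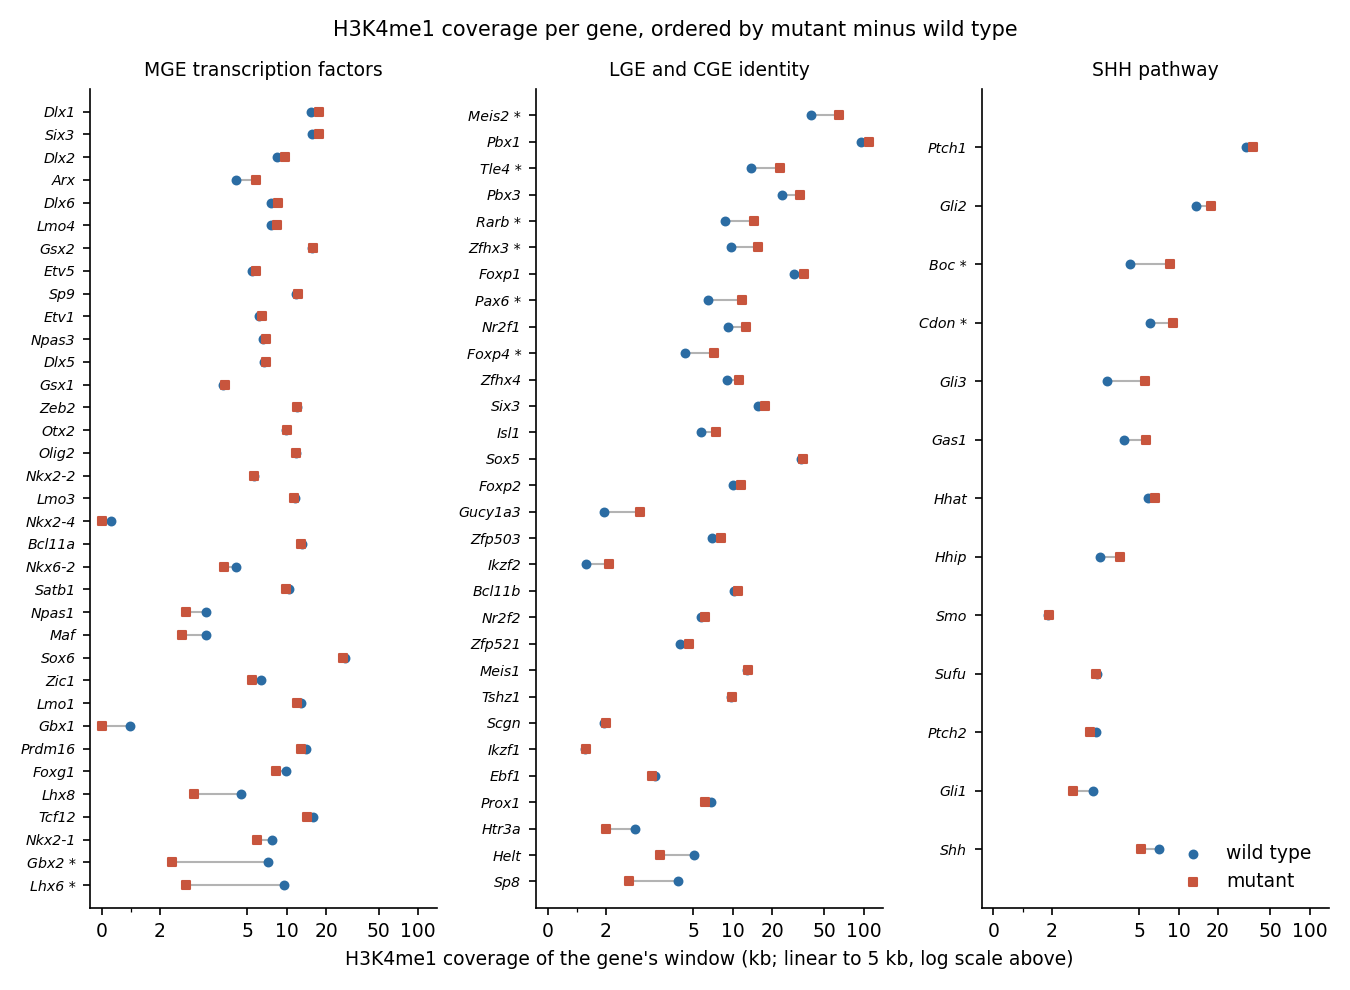
H3K4me1 coverage of each gene's window (kb, x axis, linear to 5 kb and logarithmic above) in wild type (circles) and mutant (squares) for the lists of MGE transcription factors, LGE and CGE identity and the SHH pathway, with 2 of the 37 MGE genes left out, ordered by the difference, with asterisks for genes past the rule of 2 kb and 1.5-fold. Lhx6 and Gbx2 are at the bottom of the MGE list, and Meis2, from 39.8 to 64.4 kb, is at the top of the LGE and CGE list.

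SHH signalling, which induces Nkx2-1 in the ventral telencephalon, runs from the ligand SHH through the receptor PTCH1 and co-receptors to the GLI factors. The ligand gene Shh had 7.06 kb of H3K4me1 in wild type against 5.15 kb in the mutant, with no call, and its H3K27ac fell from 4.20 to 0.498 kb. The co-receptor genes Boc and Cdon rose, from 4.69 to 8.68 kb and from 6.06 to 9.13 kb, and both were also called with equal covered bases. The co-receptor gene Gas1 had 4.49 and 5.61 kb and the receptor gene Ptch1 32.6 and 37.0 kb. Of the transcription factors, Gli2 had 13.5 and 17.7 kb, Gli3 3.90 and 5.56 kb and Gli1, a read-out of the pathway, 3.41 and 2.72 kb. H3K27me3 fell at Boc from 10.3 to 1.36 kb and at Gli2 from 24.3 to 3.96 kb. Of the 13 genes of the list 2 rose and 0 fell (all genes 0.577% and 0.201%), and 6 were at least 1 kb higher (all genes 4.05%). Of mutant regions nearest to these genes 37.8% were alone (91 of 241), and of wild-type regions 7.14% (13 of 182), against 23.8% and 15.2% of all regions.

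**Figure D5:**
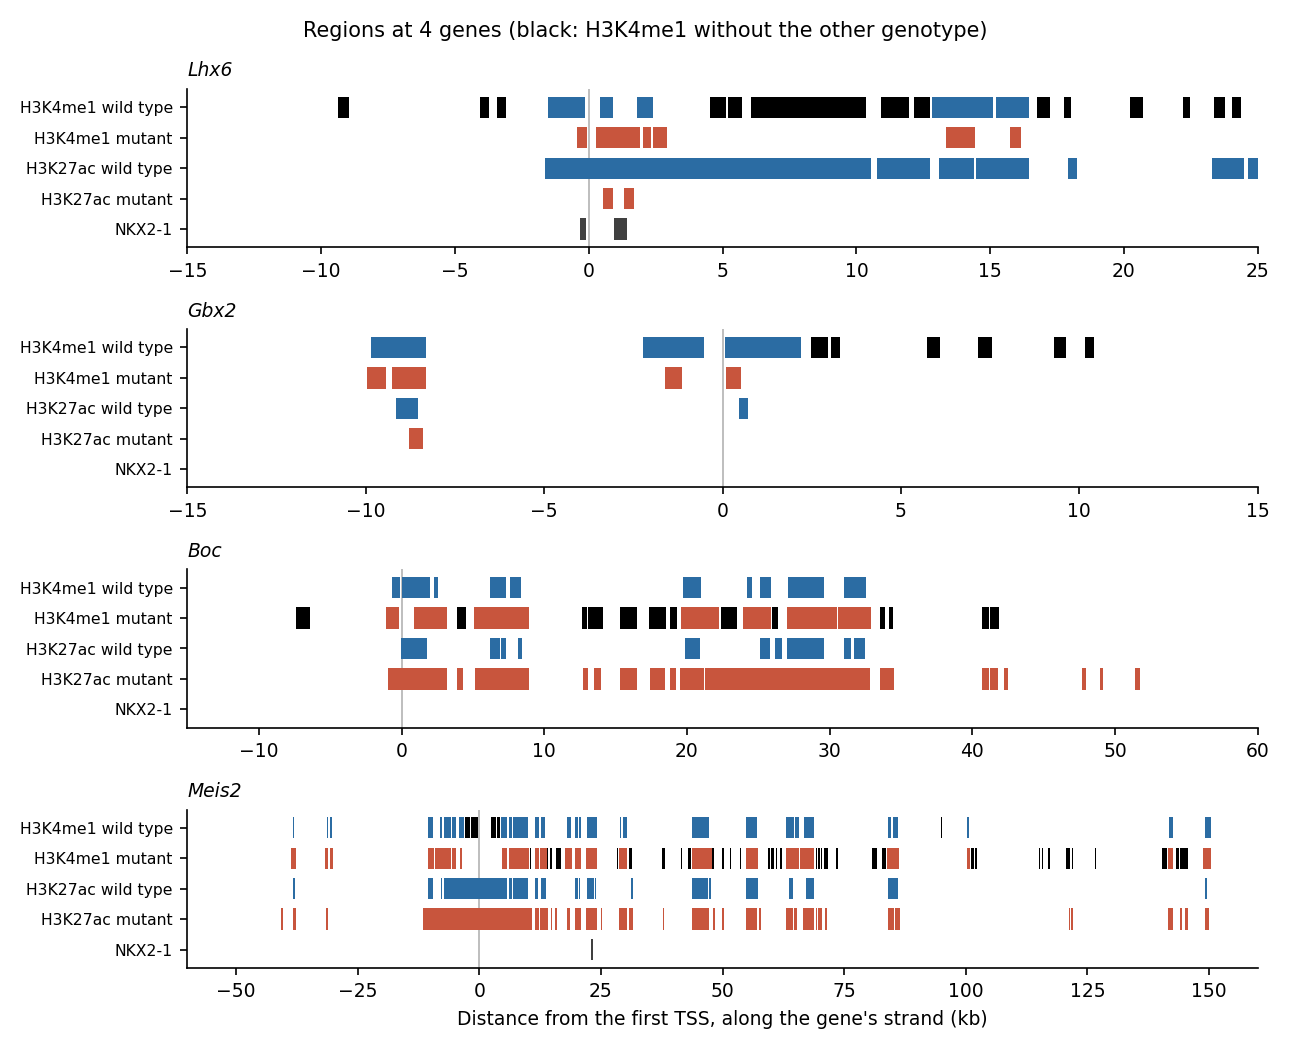
Regions of H3K4me1 and H3K27ac in both genotypes and NKX2-1 peaks in wild type at Lhx6, Gbx2, Boc and Meis2, by distance from the first TSS along the gene's strand (kb, x axis), with H3K4me1 regions alone in black. At Lhx6 14 of the 19 wild-type regions shown are alone and 0 of the 6 mutant regions, and at Boc 13 of the 20 mutant regions and 0 of the 10 wild-type regions.

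Genes under broad H3K27me3 had less H3K4me1 in the mutant more often than more, although the mutant list was the longer, and base composition moved with this as well. Of 360 genes with H3K27me3 over 50% or more of the window in wild type, 10 fell and 3 rose. Their summed coverage went from 1151 to 1078 kb, 0.937 times, and 0.843 times with equal covered bases. Of the 337 among them with H3K4me1, 62.0% had less in the mutant and 37.7% more. Of the 16669 genes without H3K27me3, 13 fell and 45 rose, the sum went 1.03 times (0.969 with equal covered bases), and 47.0% had less and 52.8% more. The median GC content of the windows was 49.4% for the former and 43.7% for the latter. In windows of 50% GC or more, 72.7% of the genes with and 67.7% of those without H3K27me3 had less H3K4me1 in the mutant, with sums of 0.865 and 0.939 times. Under 45% GC the shares were 34.1% and 36.2%, with sums of 1.01 and 1.11 times. In shares of genes the gap between the classes was thus smaller in both of these GC classes than over all genes, and in sums it was not smaller under 45% GC. The part of base composition was not tested. H3K4me3 at the 360 genes was longer in the mutant, from 1417 to 1764 kb, 1.25 times, against 1.11 times at genes without H3K27me3. The 10 genes that fell were Foxd2, Foxb1 of the mammillary hypothalamus, Lmx1b of midbrain dopaminergic neurons, the pallial proneural gene Neurog2, Gbx2 and its neighbour D130058E05Rik, Lhx6, Nxph4, Shmt2 and Gm12830. Foxb1 fell from 5.54 to 2.20 kb and Neurog2 from 2.96 to 0.902 kb, both with 0 kb of H3K27ac in both genotypes. Foxd2 fell from 2.57 to 0.524 kb and Lmx1b from 4.46 to 2.28 kb. Their H3K27me3 covered 19 and 19.5 kb at Foxb1 and 19.6 and 19.9 kb at Neurog2 in wild type and mutant. An NKX2-1 peak lay at 3 of these 10 genes and H3K27ac fell at 2. Of the other 35 genes that fell, 17 had an NKX2-1 peak and H3K27ac fell at 16.

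The other lists had 0 to 2 calls each (all genes 0.201% lower and 0.577% higher). Among 38 genes of cortical interneurons Cdh13, a cadherin, rose from 24.2 to 37.2 kb and 0 fell. At equal covered bases Cdh13 was no longer called and 2 genes fell, Plxna4 among them. Tcf4, an E-protein gene of that list, had 61.4 kb in wild type against 48.4 kb in the mutant with H3K27ac falling from 59.1 to 32.3 kb. Among 15 genes of cholinergic projection neurons Gbx2 fell, and the sum went from 65.6 to 53.2 kb. Chat, the acetylcholine-synthesising enzyme, had 2.11 and 0.818 kb. Among 24 genes of the WNT and BMP pathways the co-receptor gene Lrp6 rose from 4.89 to 7.74 kb, which was not called with equal covered bases, and the effector gene Tcf7l2 had 32.6 and 47.48 kb. Among 16 genes of the retinoic acid pathway Rarb rose, and the receptor gene Rxra, 12.6 and 8.79 kb, fell with equal covered bases only. Pax6 alone rose among 29 Notch and progenitor genes, and 0 of 22 genes of striatal projection neurons moved past the rule.

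Markers of other cells that the dissection could hold were measured the same way. For 12 genes of the oligodendrocyte lineage the sum was 62.0 kb in wild type against 56.3 kb in the mutant, with 0 calls as deposited. In lists of equal covered bases Mbp, a myelin gene, fell from 13.8 to 7.90 kb and Gpr17, a gene of oligodendrocyte precursors, from 2.59 to 0.494 kb. Of their mutant regions 7.87% were alone, 7 of 89. For 18 pallial genes the sums were 70.0 and 71.4 kb with Neurog2 lower, and for 20 hypothalamic and diencephalic genes 107.8 and 111.3 kb with Gbx2 and Foxb1 lower. With equal covered bases both sums were lower in the mutant, 64.7 kb for the pallial and 98.2 kb for the hypothalamic and diencephalic genes, and Irx3 and Irx5 fell as well, from 3.33 to 0.596 kb and from 3.81 to 1.28 kb. Genes of endothelial, mural and blood cells (16 genes) had 17.6 and 17.0 kb and those of microglia (8 genes) 8.71 and 8.46 kb, each with 0 calls. The microglial genes Ptprc and Trem2 were at 0 kb in both genotypes. Hox genes, silent in the forebrain, had 13.4 and 8.66 kb over 25 genes, with 8 genes at 0 in both genotypes. Housekeeping genes had 56.1 and 61.1 kb over 18 genes, and 21 genes of H3K4 methyltransferases, their complexes, demethylases and the acetyltransferases Ep300 and Crebbp had 72.3 and 72.1 kb, both with 0 calls.

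Over all genes the losses with the most bases were mostly at long genes and short of 1.5-fold. Coverage went from 54.6 to 42.8 kb at the kainate receptor gene Grik3 and from 42.6 to 31.1 kb at the homeobox gene Cux1, where H3K27ac fell from 32.7 to 11.5 kb. It went from 39.4 to 32.7 kb at Tiam1, 32.8 to 26.2 kb at Tox2, 39.7 to 33.9 kb at Elmo1, 31.8 to 23.6 kb at Megf11, 26.7 to 18.7 kb at Sept9, 24.3 to 17.3 kb at the ubiquitin ligase gene Nedd4l and 31.5 to 25.7 kb at Casz1. With Tcf4 and Lhx6 these are 11 of the 12 largest differences, and the other is Mical2, which fell from 14.8 to 9.23 kb. Also, 3 Groucho-family genes, chosen after their values were seen, fell while their relative Tle4 rose. Windows of neighbouring genes can overlap, so these 3 falls are not taken as independent. Tle2 went from 8.88 to 4.31 kb, Aes from 6.95 to 3.24 kb and Tle6 from 5.17 to 2.22 kb. Also among the 45 were the E-protein gene Tcf3, from 5.10 to 2.94 kb, the Notch-modifying gene Mfng, from 7.23 to 4.79 kb, and the demethylase gene Kdm4b, from 6.14 to 3.15 kb, each with an NKX2-1 peak and lower H3K27ac length.

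In the lists as deposited, where the mutant covers 1.10 times as many bases, the rises were larger. With equal covered bases 62 of the 129 rises were still called, and 127 genes fell. The values of single genes here are as deposited. The gene 1700112E06Rik on chromosome 14, whose window starts 22828934 bases along the chromosome beside the window of the LGE factor gene Zfp503, rose from 27.02 to 58.6 kb with H3K27ac from 5.16 to 42.8 kb. Zfp503 itself had 6.995 and 8.19 kb of H3K4me1. The adhesion gene Cadm1 rose from 44.6 to 72.1 kb, Macrod2 from 31.7 to 52.8 kb, Btbd9 from 19.2 to 37.0 kb and Egfem1 from 15.3 to 33.0 kb. Coverage was higher without reaching 1.5-fold at Auts2, 174.0 and 198.7 kb, Dab1, 47.3 and 65.2 kb, Zbtb20, 45.3 and 61.5 kb, Nrxn3, 58.6 and 74.3 kb, and Sema6d, 31.8 and 47.1 kb. H3K27ac was higher in the mutant at each of these 11 genes, Meis2 included. It was higher, by any length, at 119 of the 129 genes that rose and at 45.5% of all genes.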

How the data were processed

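H3K4me1 peak lists of 1 wild-type and 1 Nkx2-1cKO library were analysed with 8 further lists of the series. The authors worked on mm9 with BWA 0.6.2, MACS2 2.1.0, CASAVA 1.8.2 and bcl2fastq 1.8.4, per the submitters' processing notes. MACS 2.1.0.20140616 compared each ChIP with input at p of 1.00e-05, per the file headers, without local background or fragment model. Tags were extended to 250 bases, with 1 kept per position, alignments were merged before calling and the larger library was scaled down to the smaller. The deposited columns hold the pileup (a signal, in tags at the summit), the −log10 p-value and the fold enrichment over control (a ratio), all as the authors' caller gave them. They were used only to describe or rank regions within a list. The deposited −log10 q-value was not used, since the headers call it not calculated.

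Entries of 1 region were merged (strongest summit kept), other contigs were left out (77 wild-type and 68 mutant regions), and lengths, distances and overlaps came from Python 3.11.15 with pandas 2.3.3, numpy 2.4.6 and scipy 1.17.1. Overlaps were checked against bedtools 2.31.1 and the interval code was tested on simulated data. Figures were drawn with matplotlib 3.10.9. Genes came from GENCODE vM1 (22342 protein-coding genes, 45993 TSSs) and sequence from the NCBIM37 reference. The depth is 59.7 and 69.0 M ChIP tags in wild type and mutant. No test between genotypes was made, since each has 1 library. Coordinates count from 1.

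The regions and the 17 gene lists (362 entries matched) were chosen with earlier results of these data known. Genes named are, per list, up to 5 called lower and 5 called higher and members against the list's majority, and over all genes the 12 largest changes each way. Regions named are the strongest distal and the longest regions alone. Others are said to be chosen after their values were seen or stand for a role in a pathway. Alternatives were another overlap, a higher limit on −log10 p, equal covered bases, 50% of the covered bases, another window and other limits of change. A few genes that this rule names, and 1 region, are not reported here. Input and IgG libraries were not analysed here.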

Additional observations from a re-analysis of the deposited data

How the results depend on the processing

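No paired analysis was possible because each genotype has 1 H3K4me1 library, and only input libraries are numbered in the labels. Wild-type and mutant regions alone were 18.6% and 28.4% with overlap of at least 50%, 9.75% and 16.9% when regions within 1 kb counted as shared, 16.9% and 23.2% at −log10 p of at least 10, 22.9% and 16.6% with equal covered bases, and 28.0% and 25.6% with 50% of the covered bases. Regions at −log10 p of at least 20 set against the whole other list were alone in 0.382% and 0.677%. The order of the genotypes reversed with equal covered bases and with 50% of the covered bases, and in none of the other settings. With equal covered bases only the mutant list lost regions, and with 50% of the bases both lists did. Covered bases had a ratio of 1.08 at −log10 p of at least 10 and, by construction, 1.0 in both settings of equal bases. Bases in both were 64.4% of either at −log10 p of at least 10 and 56.9% with 50% of the bases. Near a TSS were 16.1% and 9.73% of wild-type and mutant regions alone with 50% overlap, 8.26% and 4.36% within 1 kb, 21.2% and 13.2% at −log10 p of at least 10, 17.1% of wild-type regions with equal bases, 43.6% and 27.6% with 50% of the bases, and 8.97% and 4.75% for a TSS distance of 1 kb. Genes that fell and rose numbered 94 and 157 at −log10 p of at least 10 (28 and 78 of them called as deposited), 127 and 62 with equal bases, 501 and 228 with 50% of the bases (18 and 35 called as deposited), 79 and 212 with a 25 kb window, 223 and 373 for a change of at least 1 kb, and 20 and 35 for at least 2-fold. The settings with 50% of the bases for genes, TSSs and marks, the limit of 20 and the GC classes were chosen after the data were seen. The depth sets how many weak regions are called, so a weak region alone may lie just under the limit in the other genotype. No replicate of H3K4me1 shows how far 2 libraries of 1 genotype differ.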
